A study of Mus musculus with 12 samples.

Results

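The genes described here are 10 classical targets of the tumour suppressor p53: Cdkn1a, Mdm2, Pmaip1, Trp53inp1, Bbc3, Ccng1, Sesn1, Bax, Btg2 and Gadd45a. They were measured by every probe set that the annotation of the Mouse430_2 array gives to one of these symbols. That gave 19 of the 45037 probe sets, for 9 of the 10 genes, none of them shared with another symbol. Bax has no probe set in the annotation table used and was not analysed here. A mean signal of at least 100 over the 12 arrays was required for testing, which 16 of the 19 probe sets met, at least 1 for each of the 9 genes. Just above that limit was a Sesn1 probe set with a mean of 164 (1438931_s_at), and just below it another with a mean of 84.3 (1454699_at).

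Expression was measured on 12 arrays, 1 for each of 6 lines of primary mouse embryonic fibroblasts after 6 h at 0.1% O2 (hypoxia) or at 21% O2 (normoxia). The fibroblasts came from e14.5 embryos, received Cre adenovirus at passage 3 and were expanded at least 100-fold before treatment. In the 3 triCH1 lines the CH1 domain was deleted from 3 of the 4 alleles of Crebbp (which encodes CBP) and Ep300 (which encodes p300), and the remaining allele was floxed. Line triCH1flox1 was CBP CH1/flox with p300 CH1/CH1, and lines triCH1flox2_1 and triCH1flox2_2 were CBP CH1/CH1 with p300 CH1/flox. The 3 control lines were flox1, with the genotype CBP +/flox, and flox2_1 and flox2_2, with the genotype p300 +/flox. All 6 lines thus carried a floxed allele and had received Cre, so a control line is no wild-type culture. The groups were triCH1 hypoxia, triCH1 normoxia, control hypoxia and control normoxia, with 3 arrays each. Within a line type 1 line carried the floxed allele in Crebbp and 2 carried it in Ep300.

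p53 is a transcription factor that the ubiquitin ligase MDM2 keeps scarce in unstressed cells. Damaged DNA, stalled replication or oncogene signalling frees it, and it then raises genes for cell cycle arrest, apoptosis, repair and its own restraint. Its activation domain binds CBP and p300 at several of their domains, CH1 among them, and both act as its co-activators. In cultured mouse embryonic fibroblasts p53, with the p19Arf product of Cdkn2a upstream of it, is known for halting growth after repeated passage.

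The promoters of these genes were read from RefSeq (assembly GRCm38.p6) as windows of 300 bases, with 250 bases before each transcription start and 50 after it. Entries were found for 8 of the 10 genes, in 12 windows, and Pmaip1 and Trp53inp1 had none. The decamer motif of p53, a consensus of 10 letters that p53 binding sites carry in tandem and that is its own reverse complement, occurred in 6 of the 12 windows, against 8.36% of all 32851 promoter windows. Those 6 windows belonged to Cdkn1a, Mdm2, Ccng1, Sesn1, Bax and Gadd45a, whereas Bbc3 and Btg2 had no match to these letters. A match of this kind describes the letters of the window and was not tested for binding. The windows of 3 members on which the results below turn are shown, with matches to the decamer in capitals. For Cdkn1a the window of the first of 2 starts is shown (chr17:29090729-29091028, plus strand), with matches that began 73 and 51 bases before that start. Mdm2 (chr10:117710709-117711008, minus strand) had 1 that began 186 bases before its start, and Gadd45a (chr6:67037358-67037657, minus strand) had 1 that began 40 bases before its start.
Cdkn1a: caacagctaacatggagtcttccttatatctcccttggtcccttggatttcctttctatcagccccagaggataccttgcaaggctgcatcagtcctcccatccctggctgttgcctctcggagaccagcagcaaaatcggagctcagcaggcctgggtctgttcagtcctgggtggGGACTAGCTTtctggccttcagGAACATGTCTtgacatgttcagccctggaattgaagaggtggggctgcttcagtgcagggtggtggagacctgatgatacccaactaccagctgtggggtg
Mdm2: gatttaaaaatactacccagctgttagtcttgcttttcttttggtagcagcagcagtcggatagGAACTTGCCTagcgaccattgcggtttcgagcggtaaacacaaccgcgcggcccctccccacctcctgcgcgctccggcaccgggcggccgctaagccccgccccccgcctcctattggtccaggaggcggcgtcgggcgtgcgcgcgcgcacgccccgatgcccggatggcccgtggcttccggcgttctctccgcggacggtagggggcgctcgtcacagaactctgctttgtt
Gadd45a: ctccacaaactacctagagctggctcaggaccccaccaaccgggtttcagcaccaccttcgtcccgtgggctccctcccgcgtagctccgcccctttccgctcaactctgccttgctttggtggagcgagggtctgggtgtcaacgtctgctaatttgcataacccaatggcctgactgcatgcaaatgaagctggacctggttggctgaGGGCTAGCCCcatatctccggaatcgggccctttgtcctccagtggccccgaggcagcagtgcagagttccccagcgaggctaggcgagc
The core of the hypoxia response element, spelled ACGTG or GCGTG and searched on both strands, occurred in 9 of the 12 windows and in 43.8% of all windows. The windows of Gadd45a and of the first Cdkn1a start held 0 copies of it. That of the second Cdkn1a start held 1 copy of it and 0 matches to the decamer.

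The cultures were checked as a whole before the members were compared. Median signals of the 12 arrays ran from 57.2 to 76.1 scaled units, and no array pair was identical (66 pairs, Pearson's r of log2 signals 0.930 to 0.976). All 8 fibroblast markers had means above 100, at 218 to 44244. Of the markers of other cell types, 0 of 3 for endothelium, 2 of 4 for epithelium, 2 of 4 for macrophages and blood, 1 of 3 for skeletal muscle and 2 of 3 for nerve reached a mean of 100, and none passed the test in any comparison. The summed signals of these 6 marker lists overlapped between the groups compared, except for epithelium in control lines. That sum was 315.5 to 350.7 in control hypoxia and 356.2 to 479.4 in control normoxia. Single markers did move with line type without passing the test. The nerve marker Tubb3 (1415978_at) lay between 45.0 and 106.4 on triCH1 arrays and between 230.5 and 342.7 on control arrays, with log2 differences of −1.58 ± 0.29 in hypoxia (adjusted p = 0.0826) and −1.52 ± 0.29 in normoxia (adjusted p = 0.139). The fibroblast marker Thy1 (1423135_at) lay between 2307 and 4001 on triCH1 arrays and between 4624 and 7558 on control arrays, at −1.09 ± 0.24 (adjusted p = 0.166) and −1.03 ± 0.24 (adjusted p = 0.203). Both were chosen after their values were seen, and their part in the differences of the p53 targets between line types was not tested. Neither Crebbp (1435224_at) nor Ep300 (1434765_at) passed the test between line types, with log2 differences of 0.07 and 0.09 in normoxia, and their signals were not used as a check of the CH1 deletion. The hypoxia marker Bnip3 (1422470_at) rose by 4.39 on the log2 scale in triCH1 lines (adjusted p = 2.62e-08) and by 4.46 in control lines (adjusted p = 2.12e-08). In cultures of this kind fewer cells with a transcript and less of it per cell cannot be told apart.

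Against the control lines, the triCH1 lines had lower signals of most p53 targets at either oxygen level, but no member passed the test on group means. The question is whether loss of the CH1 domains goes with another level of these transcripts before any hypoxia. In normoxia 14 of the 16 tested probe sets were lower in triCH1 and 2 were higher, with a median log2 difference of −0.49, against 0.02 over all 18903 tested probe sets. In hypoxia 12 were lower and 4 higher, with a median of −0.42 against 0.03 over all. limma called 0 of the 16 in normoxia, where it called 0.00529% of all tested probe sets, and 0 in hypoxia, where it called 0.0741%. At an unadjusted p under 0.05, 11 of the 16 were lower in normoxia, against 3.83% of all tested probe sets, and 4 were lower in hypoxia, against 3.81%. Several of the 16 measure the same gene, so they are not independent. By leading probe sets, 6 of the 9 genes were lower at that threshold in normoxia and 4 of 9 in hypoxia. The members were chosen with earlier results of these data known. In normoxia 9 probe sets of 5 genes (Btg2, Ccng1, Mdm2, Pmaip1 and Trp53inp1) had all 3 triCH1 arrays below all 3 control arrays, which held for 4.64% of all tested probe sets. In hypoxia this held for 6 probe sets of 4 genes (Btg2, Cdkn1a, Mdm2 and Trp53inp1), against 6.05% of all, and 1 Sesn1 probe set lay wholly above the controls, against 7.1% of all. The normoxia and hypoxia comparisons use different arrays of the same 6 lines and are not independent. The leading probe sets of Cdkn1a, Mdm2, Pmaip1, Trp53inp1, Ccng1 and Btg2 kept a negative difference at both oxygen levels under every alternative scaling, filter and model and every omission of an array or line.

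**Figure D1:**
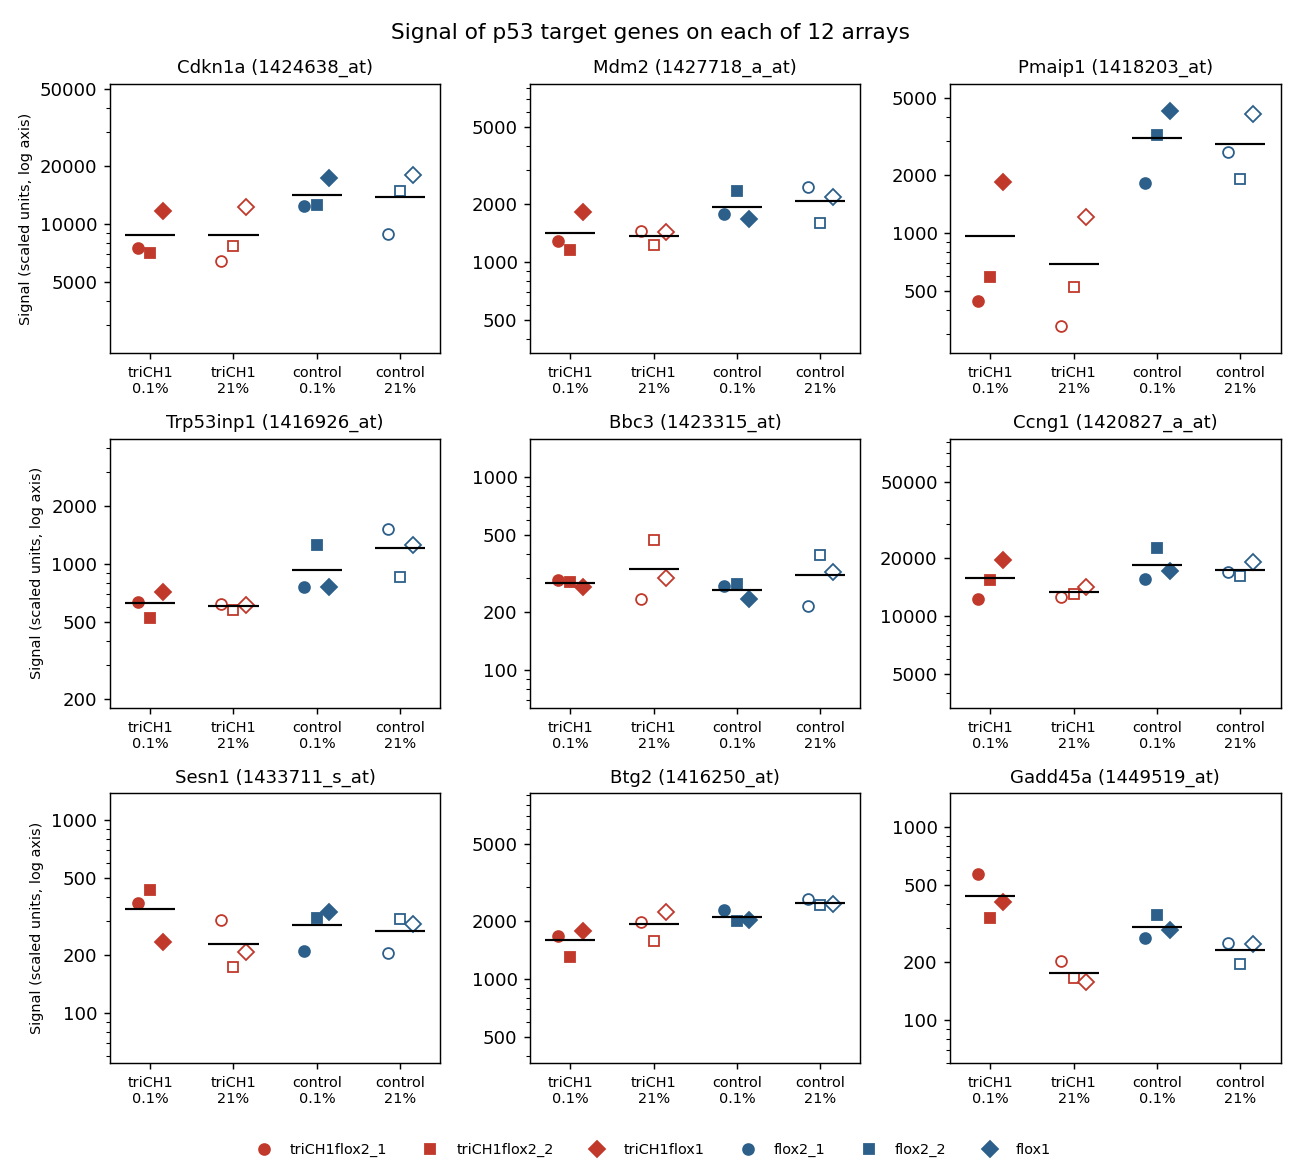
Signal of the leading probe set of 9 p53 target genes on each of the 12 arrays, in scaled units on a log axis, with filled symbols for 0.1% O2, open symbols for 21% O2, a symbol shape per line and a bar at the group mean of 3 arrays. Pmaip1 lay between 331 and 1843 on triCH1 arrays and between 1816 and 4278 on control arrays, and only Gadd45a had its hypoxia arrays wholly above its normoxia arrays in both line types.

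Among the genes for apoptosis, Pmaip1 had the widest difference between line types. Pmaip1 (1418203_at) encodes NOXA, a BH3-only protein that neutralises the survival protein MCL1. In hypoxia its signal was 441 in triCH1flox2_1, 591 in triCH1flox2_2 and 1843 in triCH1flox1, against 1816 in flox2_1, 3226 in flox2_2 and 4278 in flox1. In normoxia it was 331, 524 and 1208 in the same triCH1 lines, against 2627, 1902 and 4145 in the same control lines. All 3 triCH1 lines lay below all 3 control lines in normoxia, and in hypoxia only triCH1flox1 reached the lowest control. The triCH1 mean was 0.238 times the control mean in normoxia and 0.308 times in hypoxia. On the log2 scale the difference was −2.17 ± 0.53 in normoxia (SE, adjusted p = 0.238) and −1.87 ± 0.53 in hypoxia (adjusted p = 0.341). With the floxed gene as a covariate the sizes were the same and the errors smaller, and Pmaip1 passed at −2.17 ± 0.27 in normoxia (adjusted p = 0.00515, lower calls 0.323% of all) and at −1.87 ± 0.27 in hypoxia (adjusted p = 0.00845, 0.545% of all). It also passed among the Ep300-floxed lines alone, at −2.37 ± 0.32 in normoxia (adjusted p = 0.0193, lower calls 0.164% of all) and −2.20 ± 0.32 in hypoxia (adjusted p = 0.0245, 0.185% of all). Without triCH1flox1 it passed at −2.66 ± 0.37 in normoxia (adjusted p = 0.00682, 0.841% of all) and at −2.47 ± 0.37 in hypoxia (adjusted p = 0.00931, 0.963% of all). That omission took out the triCH1 line nearest the controls and left a Crebbp-floxed line, flox1, only among the controls. A replicate block for lines whose names differ only in the triCH1 prefix gave −1.87 ± 0.25 in hypoxia (adjusted p = 0.00401, 0.894% of all) and −2.17 ± 0.25 in normoxia (adjusted p = 0.00279, 0.651% of all). Such lines deviated together in hypoxia, with correlations of 0.15 to 0.22, but not in every pair in normoxia, where flox2_2 gave −0.01. Most alternatives did not give a call. Pmaip1 passed in normoxia in 2 of 18 omissions and 3 of 13 other settings, and in hypoxia in 1 of 18 and 3 of 13.

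Trp53inp1 (1416926_at), which encodes a stress protein that promotes p53-dependent death and autophagy, had its narrowest spread among triCH1 lines in normoxia. The signals there were 619 in triCH1flox2_1, 577 in triCH1flox2_2 and 615 in triCH1flox1, against 1518 in flox2_1, 855 in flox2_2 and 1256 in flox1. In hypoxia they were 638, 528 and 720 in the same triCH1 lines, against 761, 1259 and 759 in the same control lines. The groups did not overlap at either oxygen level. The log2 difference was −0.94 ± 0.24 in normoxia (adjusted p = 0.284) and −0.51 ± 0.24 in hypoxia (adjusted p = 0.625), and the weaker probe set 1416927_at gave −0.80 and −0.46. Bbc3 (1423315_at), which encodes PUMA, another BH3-only protein, averaged 283 ± 12.2 in triCH1 and 261 ± 24.6 in control lines in hypoxia (SD, n = 3), and 335 ± 122 and 310 ± 90.0 in normoxia. Its log2 differences were 0.11 ± 0.26 and 0.09 ± 0.26, within the spread between lines, and its arrays overlapped at both oxygen levels.

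Among the genes for growth arrest, Cdkn1a and Btg2 were lower in triCH1 lines and Gadd45a had opposite signs at the 2 oxygen levels, without passing the test on group means. Cdkn1a (1424638_at) encodes p21, which blocks cyclin-dependent kinases. In hypoxia its signal was 7505 in triCH1flox2_1, 7052 in triCH1flox2_2 and 11681 in triCH1flox1, against 12447 in flox2_1, 12551 in flox2_2 and 17356 in flox1. In normoxia it was 6413, 7677 and 12342 in the same triCH1 lines, against 8900, 14821 and 17892 in the same control lines. The hypoxia groups did not overlap, and in normoxia triCH1flox1 lay above flox2_1. The log2 difference was −0.71 ± 0.28 in hypoxia (adjusted p = 0.559) and −0.65 ± 0.28 in normoxia (adjusted p = 0.635). With the name-sharing lines as a replicate block it passed, at −0.71 ± 0.14 in hypoxia (adjusted p = 0.0272, lower calls 0.894% of all) and −0.65 ± 0.14 in normoxia (adjusted p = 0.0458, 0.651% of all). A second Cdkn1a probe set, 1421679_a_at, gave −0.76 ± 0.37 and −0.85 ± 0.37. Btg2 (1416250_at), which encodes an antiproliferative partner of mRNA deadenylases, averaged 1589 ± 254 in triCH1 and 2108 ± 158 in control lines in hypoxia, and 1928 ± 324 and 2492 ± 92.7 in normoxia. The groups of this probe set did not overlap at either oxygen level, and the log2 differences were −0.41 ± 0.17 (adjusted p = 0.565) and −0.38 ± 0.17 (adjusted p = 0.643). The other Btg2 probe set, 1448272_at, gave −0.47 ± 0.28 and −0.46 ± 0.28, with overlapping arrays in each. Its signal in triCH1flox1 in normoxia, 1750.4, lay above every control array in normoxia (1208.5 to 1723). Gadd45a (1449519_at), whose product acts in arrest and stress kinase signalling, gave 0.49 ± 0.23 in hypoxia (adjusted p = 0.625) and −0.37 ± 0.23 in normoxia (adjusted p = 0.821), with overlapping arrays in each.

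The feedback genes Mdm2 and Ccng1 were lower in triCH1 lines at both oxygen levels and did not pass the test. Mdm2 (1427718_a_at), which encodes the ligase that degrades p53, gave 1276 in triCH1flox2_1, 1152 in triCH1flox2_2 and 1818 in triCH1flox1 in hypoxia, against 1766 in flox2_1, 2319 in flox2_2 and 1666 in flox1. In normoxia it gave 1439, 1216 and 1421 in the same triCH1 lines, against 2451, 1597 and 2181 in the same control lines. The normoxia groups did not overlap, and in hypoxia triCH1flox1 exceeded flox2_1 and flox1. The log2 differences were −0.44 ± 0.21 in hypoxia (adjusted p = 0.635) and −0.59 ± 0.21 in normoxia (adjusted p = 0.512). Another probe set of Mdm2, 1423605_a_at, gave −0.42 and −0.61, and 1457929_at read 1.3 to 59.4 over the 12 arrays and was not tested. Ccng1, which encodes cyclin G1, a recruiter of phosphatase 2A to MDM2, had 3 tested probe sets, and all 3 were lower in triCH1. Their log2 differences ran from −0.51 to −0.38 in normoxia, where no triCH1 array reached a control array, and from −0.35 to −0.24 in hypoxia, where the arrays overlapped. For the leading Ccng1 probe set, 1420827_a_at, the means were 13337 ± 844 in triCH1 and 17415 ± 1572 in control lines in normoxia.

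Sesn1 encodes sestrin 1, an inhibitor of the growth kinase complex mTORC1. Between line types it was the only member whose tested probe sets differed in sign. In normoxia 1433711_s_at gave −0.23 ± 0.28 and 1438931_s_at gave 0.34 ± 0.24. In hypoxia both were higher in triCH1, at 0.25 ± 0.28 and 0.43 ± 0.24, and only the arrays of 1438931_s_at did not overlap. The other Sesn1 probe sets, 1454699_at and 1444376_at, read 53.4 to 163.1 and 1.5 to 83.4 and were not tested.

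**Figure D2:**
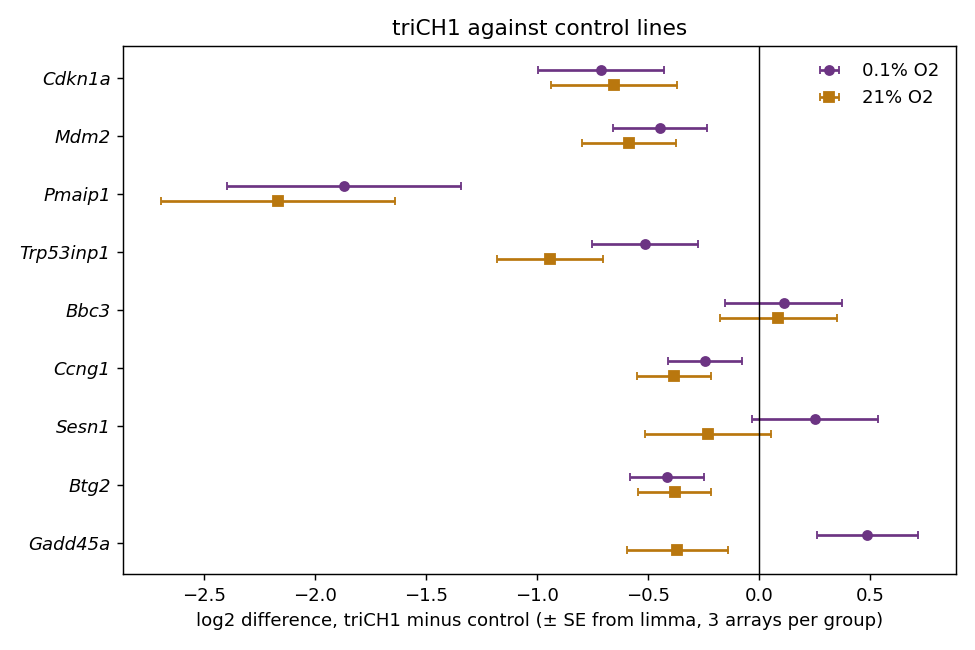
Difference of the leading probe set of each gene between triCH1 and control lines on the log2 scale, with circles for 0.1% O2, squares for 21% O2 and bars of 1 SE from limma (3 arrays per group). Pmaip1 lies farthest from 0, at −1.87 and −2.17, and Bbc3, Sesn1 and Gadd45a have a positive difference in at least 1 condition.

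The arrays of a line share its cells, so the line types were also compared on 1 value per line, the mean of its hypoxia and normoxia arrays. This comparison of 3 triCH1 with 3 control lines was chosen after the data had been seen. limma called 0 of the 16 probe sets, as of all tested probe sets (0% called), and 11 were lower at an unadjusted p under 0.05, against 4.70% of all. By leading probe sets this was 6 of the 9 genes. Log2 differences were −2.02 ± 0.45 for Pmaip1 (adjusted p = 0.237), −0.73 ± 0.14 for Trp53inp1 (adjusted p = 0.216), −0.68 ± 0.24 for Cdkn1a (adjusted p = 0.414) and −0.52 ± 0.14 for Mdm2 (adjusted p = 0.346). The means of all 3 triCH1 lines lay below those of all 3 control lines in 7 probe sets of Btg2, Ccng1, Mdm2, Pmaip1 and Trp53inp1, against 6.22% of all tested probe sets. A Sesn1 probe set was wholly higher, against 8.02% of all. With the floxed gene as a covariate Pmaip1 passed (−2.02 ± 0.20, adjusted p = 0.0187, lower calls 0.323% of all), as it did with the line as a random block over 12 arrays (adjusted p = 0.0306, 0.54% of all). Without triCH1flox1, Pmaip1 (−2.57 ± 0.28, adjusted p = 0.00753), Trp53inp1 (−0.78 ± 0.15, adjusted p = 0.0321) and Cdkn1a (−0.93 ± 0.19, adjusted p = 0.0473) passed, while lower calls rose to 1.45% of all tested probe sets. Only the controls then held a Crebbp-floxed line. The block for lines named alike also gave calls, for Pmaip1 (adjusted p = 0.0165), Cdkn1a (0.0333 and 0.0433 for its probe sets) and Trp53inp1 (0.0479), with lower calls at 0.719% of all.

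The members differed in how the single lines were ordered. Averaged over a line's 2 arrays, Pmaip1 was highest in flox1 at 4211, followed by flox2_2 at 2564, flox2_1 at 2221, triCH1flox1 at 1525, triCH1flox2_2 at 558 and triCH1flox2_1 at 386. The highest line was 10.9 times the lowest. Cdkn1a had flox1 at 17624, flox2_2 at 13686, triCH1flox1 at 12011, flox2_1 at 10673, triCH1flox2_2 at 7364 and triCH1flox2_1 at 6959. In both genes the Crebbp-floxed line was the highest of its line type, and the mean of the 2 Crebbp-floxed lines exceeded that of the 4 Ep300-floxed lines by 1.25 on the log2 scale for Pmaip1 and by 0.65 for Cdkn1a. For Mdm2 and Trp53inp1 that difference was 0.14 and 0.03, and flox2_1 was the highest line. With 1 Crebbp-floxed line in each line type, a property of the floxed gene and one of the single line cannot be told apart. Between lines whose names differ only in the triCH1 prefix, the log2 difference of Pmaip1 was −2.46 for triCH1flox2_1, −2.11 for triCH1flox2_2 and −1.48 for triCH1flox1. For Cdkn1a these differences were −0.60, −0.89 and −0.55, and the labels do not state that such lines were matched.

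Hypoxia raised Gadd45a in triCH1 lines and left the other members without a call in either line type. The question here is how 6 h at 0.1% O2 bore on p53 targets, and whether the response differed between line types. In triCH1 lines the signal of Gadd45a (1449519_at) in hypoxia was 571 in triCH1flox2_1, 338 in triCH1flox2_2 and 409 in triCH1flox1, against 202, 165 and 157 in normoxia. In control lines it was 265 in flox2_1, 349 in flox2_2 and 293 in flox1, against 250, 195 and 249. Every hypoxia array lay above every normoxia array within its line type, which held for 5.64% of all tested probe sets in triCH1 lines and for 4.66% in control lines. All 6 lines had a higher signal in hypoxia. The rise was 1.21 ± 0.23 on the log2 scale in triCH1 lines (adjusted p = 0.0227), and the value in control lines was 0.36 ± 0.23 (adjusted p = 1.00). The mean response over both line types was 0.79 ± 0.16 (adjusted p = 0.0208), a 1.72-fold higher signal. The difference between the responses, 0.86 ± 0.32, did not pass (adjusted p = 1.00, unadjusted p = 0.0188), so the response is not shown to be larger in triCH1 lines. Gadd45a was the 1 member called among 16 probe sets in triCH1 lines, where 0.635% of all tested probe sets were called, and for the mean response, where 1.75% were. In control lines limma called 0 of the 16, against 0.831% of all, with 0 at an unadjusted p under 0.05. For the difference it called 0, as of all tested probe sets (0%), and Gadd45a was the 1 member at an unadjusted p under 0.05, against 0.333% of all in that direction.

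The call in triCH1 lines was sensitive to omissions, among them that of the control line flox1, which left the log2 response at 1.21. It was kept in 10 of 18 omissions of an array or line and lost without the hypoxia array of triCH1flox2_1 (adjusted p = 0.145) or triCH1flox1 (0.0757), without the normoxia array of triCH1flox1 (0.0930) or triCH1flox2_2 (0.112), and without the line triCH1flox2_1 (0.205), triCH1flox1 (0.198), triCH1flox2_2 (0.0938) or flox1 (0.0693). The log2 response over these omissions stayed between 1.01 and 1.38. For the mean response 9 of 18 omissions kept the call, with log2 values of 0.68 to 0.87. It was lost without the arrays of triCH1flox2_1 in hypoxia (adjusted p = 0.0576), triCH1flox2_2 in normoxia (0.0560), flox2_2 in hypoxia (0.0649) and flox2_2 in normoxia (0.0652). Leaving out the line triCH1flox2_1 (0.0740), triCH1flox1 (0.0770), flox2_1 (0.0577), flox2_2 (0.169) or flox1 (0.0925) ended it too. Gadd45a has 1 probe set, so no second measure of this transcript was at hand.

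**Figure D3:**
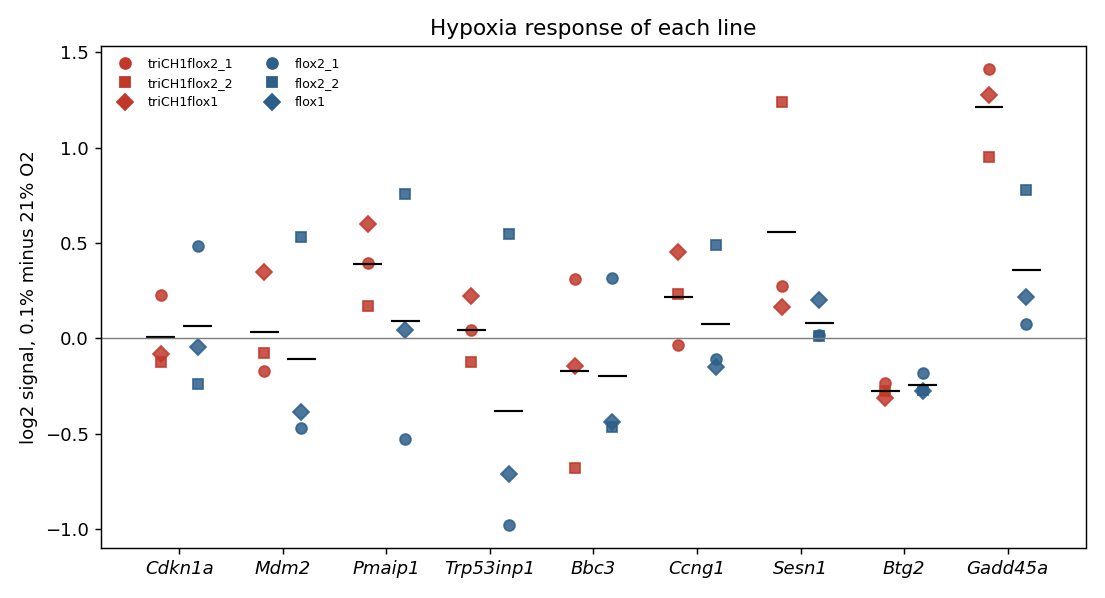
Hypoxia response of each line for the leading probe set of each gene, as the log2 signal at 0.1% O2 minus that at 21% O2, with a symbol per line and a bar at the mean of 3 lines (triCH1 left, control right). All 6 lines lie above 0 for Gadd45a and below 0 for Btg2, and the 3 control lines scatter widely for Trp53inp1, at −0.98 to 0.55.

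By its leading probe set, Btg2 had the most even response of the members. Its signal (1416250_at) was lower in hypoxia in all 6 lines, with log2 responses of −0.24, −0.28 and −0.31 in triCH1flox2_1, triCH1flox2_2 and triCH1flox1, and of −0.18, −0.27 and −0.27 in flox2_1, flox2_2 and flox1. The control arrays in hypoxia (2006 to 2289) lay wholly below those in normoxia (2422 to 2597), which held for 6.97% of all tested probe sets, and the triCH1 arrays overlapped. The mean response was −0.26 ± 0.12 and did not pass (adjusted p = 0.428). The second Btg2 probe set, 1448272_at, gave −0.41 ± 0.20 with all 6 lines lower but less even, from −0.07 in flox2_1 to −0.73 in triCH1flox1.

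The genes with wide differences between line types showed small mean responses. For Cdkn1a the response was 0.01 ± 0.28 in triCH1 and 0.07 ± 0.28 in control lines, and single lines ran from −0.24 to 0.48. Pmaip1 gave 0.39 ± 0.53 in triCH1 lines, all 3 of which were higher in hypoxia, and 0.09 ± 0.53 in control lines, which ran from −0.53 to 0.76. Mdm2 gave 0.03 ± 0.21 and −0.11 ± 0.21, and Trp53inp1 gave 0.05 ± 0.24 and −0.38 ± 0.24. Within the control lines flox2_2 went the other way from flox2_1 and flox1 for these last genes. Mdm2 was higher in hypoxia by 0.53 in flox2_2 and differed by −0.47 and −0.38 in flox2_1 and flox1, and Trp53inp1 was higher by 0.55 in flox2_2 and differed by −0.98 and −0.71. Without flox2_2 the control response was −0.43 for Mdm2 and −0.84 for Trp53inp1, neither of which passed. The arrays of flox2_2 were also the pair with the least shared deviation from their groups, with a correlation of −0.02, and its part in these values was not tested. Sesn1 (1433711_s_at) was higher in hypoxia in all 6 lines, with 0.56 ± 0.28 in triCH1 lines (adjusted p = 0.841), of which triCH1flox2_2 alone gave 1.24, and 0.08 ± 0.28 in control lines. The other tested Sesn1 probe set, 1438931_s_at, was higher in only 4 of 6 lines. It gave 0.24 ± 0.24 in triCH1 and 0.15 ± 0.24 in control lines. Ccng1 gave 0.22 ± 0.17 and 0.08 ± 0.17 and Bbc3 −0.17 ± 0.26 and −0.20 ± 0.26 in triCH1 and control lines, within the spread between lines. In control lines the tested probe sets differed in sign for Cdkn1a, at −0.03 to 0.07, and for Ccng1, at −0.09 to 0.08. Those of Ccng1 ran from −0.003 to 0.22 in triCH1 lines.

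Other genes of the pathway were counted in 3 lists, each gene by its probe set of highest mean. Of 24 symbols listed as regulators of p53, 20 were tested, and limma called 0 in any comparison, where it called 0% to 1.75% of all tested probe sets. The symbols Rfwd2 and Cop1 name the same gene, which was tested as Cop1. Trp53 itself has no probe set in the annotation table used. Cdkn2a (1450140_a_at), which encodes p19Arf and p16Ink4a, gave 454, 327 and 522 in hypoxia in triCH1flox2_1, triCH1flox2_2 and triCH1flox1, against 779, 876 and 1508 in flox2_1, flox2_2 and flox1. In normoxia it gave 415, 333 and 671 in triCH1 lines, against 669, 845 and 1461 in control lines. Only triCH1flox1 in normoxia reached a control array, and flox1 was the highest line. The log2 difference was −1.21 ± 0.33 in hypoxia (adjusted p = 0.321) and −1.02 ± 0.33 in normoxia (adjusted p = 0.456). Mdm4 (1460542_s_at), whose product holds p53 inactive, gave 0.21 ± 0.30 and −0.20 ± 0.30. Pml (1448757_at), which encodes the scaffold of PML nuclear bodies, had the smallest p of the list. Its mean response to hypoxia was −0.56 ± 0.15 (adjusted p = 0.0827), and its hypoxia arrays lay wholly below its normoxia arrays in both line types, which held for 6.21% of all tested probe sets in triCH1 lines and 6.97% in control lines. Atr and Daxx, which also act upstream of p53, followed Pml and Cdkn2a by p and did not pass.

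Of 42 other p53 targets, 37 were tested. Their median difference between line types on line means was −0.14, against 0.03 over all tested probe sets and −0.40 over the leading probe sets of the 9 members. In that comparison 24 of 37 were lower in triCH1, against 45.0% of all tested probe sets. Of the 37, 0 were called (0% of all), and 6 were lower at an unadjusted p under 0.05, against 4.70% of all. The smallest p for a difference between line types in the list was that of Btg1 (1426083_a_at), a relative of Btg2. In hypoxia Btg1 had 3824 ± 852 in triCH1 and 6832 ± 162 in control lines (SD, n = 3), a log2 difference of −0.86 ± 0.19 that did not pass (adjusted p = 0.166). Hypoxia raised 2 of the 37 in control lines and for the mean response and 1 in triCH1 lines, against higher calls of 0.799%, 1.42% and 0.63% of all. Ccng2 (1416488_at), which encodes cyclin G2, rose by 2.13 ± 0.25 in triCH1 lines (adjusted p = 0.000363) and by 2.32 ± 0.25 in control lines (adjusted p = 9.62e-05). Ddit4 (1428306_at), which encodes the mTORC1 inhibitor REDD1, rose by 1.31 ± 0.28 in control lines (adjusted p = 0.0423), and its value in triCH1 lines was 1.07 ± 0.28 (adjusted p = 0.173). Both are also known as targets of hypoxia-inducible factors. Aen, Psrc1 and Gadd45g did not pass in any comparison. Over both line types the mean response of Aen (1423957_at) to hypoxia was −0.47 ± 0.11 (adjusted p = 0.0552). That of Psrc1 (1417323_at) was −0.46 ± 0.11 (adjusted p = 0.0520). In both genes the hypoxia arrays lay wholly below the normoxia arrays in each line type. This held for 6.21% of all tested probe sets in triCH1 lines and 6.97% in control lines. By mean response 7 of the 37 were lower at an unadjusted p under 0.05 (6.52% of all) and 3 were higher (4.79%).

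Of 23 cell cycle and senescence genes downstream of p21 or beside it, 22 were tested, and 0 were called in any comparison, against 0% to 1.75% of all tested probe sets. On line means 18 of the 22 were higher in triCH1 lines and 4 lower, with a median of 0.43, where 45.0% of all tested probe sets were lower. At an unadjusted p under 0.05, 10 of the 22 were higher, against 5.13% of all, and 2 were lower, against 4.70%. Plk1 (1448191_at), a mitotic kinase, averaged 2033 ± 552 in triCH1 and 1352 ± 265 in control lines in normoxia (log2 difference 0.57 ± 0.20, adjusted p = 0.512). Cdk2 (1416873_a_at), a kinase that p21 blocks, averaged 979 ± 203 and 669 ± 85.3 (0.52 ± 0.19, adjusted p = 0.521). Cdkn2c (1416868_at) and Cdkn2d (1416253_at), which encode inhibitors of the cyclin D kinases, did not pass either. On line means both were higher in triCH1 lines, at 0.50 ± 0.20 and 0.16 ± 0.15. Another kinase inhibitor gene, Cdkn1b (1434045_at), picked with its values known, gave 0.71 ± 0.37 (adjusted p = 0.569). The kinase inhibitor genes of the list thus went both ways. The lowest genes of this list were named after their values were seen. They were Cdkn1c (1417649_at), at −1.25 ± 0.50 on line means (adjusted p = 0.478), and Cdkn2b (1449152_at), the neighbour of Cdkn2a, at −0.98 ± 0.35 (adjusted p = 0.426). The part of growth rate in the values of the p53 targets was not tested.

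**Figure D4:**
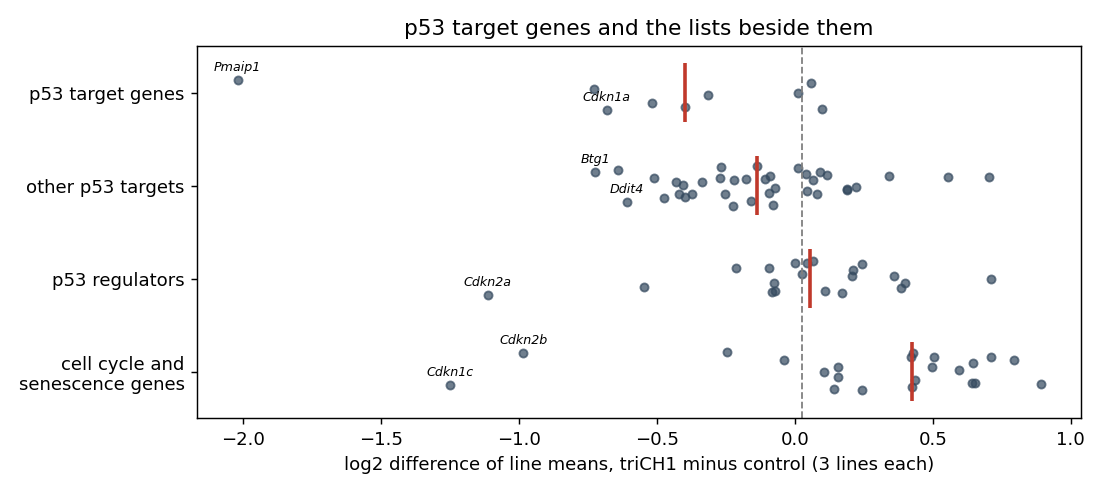
Difference of line means between triCH1 and control lines on the log2 scale for the 9 p53 target genes and the 3 lists beside them, with 1 point per gene, a red bar at each list's median and a dashed line at the median of all tested probe sets (0.03). The medians are −0.40 for the p53 target genes, −0.14 for other p53 targets, 0.05 for p53 regulators and 0.43 for cell cycle and senescence genes.

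The 5 tested genes whose pattern was most like that of Cdkn1a over the 12 arrays were Npc2, St7l, Grb14, Ndn and Rusc2. Likeness was the root mean square difference of the log2 signals after subtraction of each probe set's mean. It was 0.117 for Npc2 (1455768_at), 0.121 for St7l (1456363_at), 0.129 for Grb14 (1417673_at), 0.155 for Ndn (1437853_x_at) and 0.158 for Rusc2 (1426792_s_at), against a median of 0.589 over all tested probe sets. Cdkn1a itself varied by 0.489 around its own mean. Grb14, for example, averaged 2743 and 2916 in triCH1 hypoxia and normoxia, against 4563 and 4330 in control hypoxia and normoxia. These 12 arrays come from 6 lines, so the likeness is one of lines as much as of conditions.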

How the data were processed

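RNA of 12 cultures was measured on 1-colour Affymetrix Mouse430_2 arrays. The deposited values are intensity signals on a linear scale, which the authors computed by the Affymetrix Statistical algorithm with a target signal of 500, per the labels. The table holds 45101 probe sets, and 64 manufacturer's controls were left out. No detection calls were used. Genes come from the platform's annotation table.

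Samples were grouped by the line and treatment in their titles. Signals were tested as log2(signal + 20) where the mean was at least 100 (18903 probe sets), with 1 mean per group over all 12 arrays (8 residual degrees of freedom), by limma 3.58.1 (lmFit, eBayes with variance trend) in R 4.3.3. Tests were two-sided with Benjamini-Hochberg adjustment over all tested probe sets, and a call needed an adjusted p under 0.05. The fit was tested on simulated data with independent errors for each array, which did not cover arrays that share a line. Errors are SE for log2 differences and SD for signals. A gene leads with its probe set of highest mean. Named from the lists are the genes that passed, Mdm4 and Cdkn2a, and at most 4 per list with the smallest p. Any further gene is marked in the text as picked with its values known. The members and lists were chosen with earlier results of these data known. Promoter windows are RefSeq's.

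The hypoxia and normoxia arrays of a line come from the same cells. The group-mean fit has no line term and ignores this pairing, and the line as a block was an alternative. Deviations of the 2 arrays of a line from the group means correlated at 0.58, 0.35 and 0.54 in triCH1flox2_1, triCH1flox2_2 and triCH1flox1 and at 0.28, −0.02 and 0.47 in flox2_1, flox2_2 and flox1. The labels do not say whether the lines came from separate embryos, so p-values measure the spread between these lines. Precision is limited by the 3 arrays in each group. Alternatives were other pseudocounts, filters, normalizations, variance models, lines as blocks, the floxed gene as a covariate, Ep300-floxed lines alone, 1 value per gene and omission of each array and line.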

Additional observations from a re-analysis of the deposited data

How the results depend on the processing

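The numbers of member probe sets called were recomputed under each alternative. For the response in control lines and the difference in response they stayed at 0 under every alternative and omission. In triCH1 lines the 1 call, Gadd45a, was lost (0 called) with no filter (adjusted p = 0.0638), with only the arrays of the contrast (0.130) and among Ep300-floxed lines alone (0.389), and omissions gave 0 to 1. For the mean response the 1 call was lost (0 called) with no filter (0.0545), among Ep300-floxed lines alone (0.209) and with a minimum log2 change of 1, and omissions gave 0 to 1. Between line types, where 0 were called, the floxed gene as a covariate gave 1 in normoxia, 1 in hypoxia and 1 on line means, Ep300-floxed lines alone gave 1 in each (on line means lower calls were 0.37% of all tested probe sets), and the line as a random block gave 1 on line means. Each of these was Pmaip1. Omissions gave 0 to 1 in normoxia and in hypoxia and 0 to 3 on line means. The calls came without triCH1flox1 or, in normoxia (Pmaip1, adjusted p = 0.0491), without its normoxia array alone. No result that was called changed sign, and the causes were not tested.

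The line as a replicate block kept the Gadd45a call, at adjusted p = 0.0101 in triCH1 lines (higher calls 0.936% of all) and 0.00947 for the mean response (2.41% of all), and changed no other hypoxia call. Between line types a block can only follow the shared part of the names, which the labels do not call a pairing. Deviations of lines named alike correlated at 0.37, −0.01 and 0.32 in normoxia and at 0.15, 0.20 and 0.22 in hypoxia for flox2_1, flox2_2 and flox1. With that replicate block 2 were called in normoxia and 2 in hypoxia (Pmaip1 and Cdkn1a) and 4 on line means (also Trp53inp1 and a second Cdkn1a probe set), where lower calls made up 0.651%, 0.894% and 0.719% of all tested probe sets.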
